A study of Mus musculus with 2 samples.

Results

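The levels of 10 transcription factors of the adipogenic cascade were read from RNA-seq of primary fibro-adipogenic progenitors (FAPs), stromal cells of muscle with the capacity to form fat. The members were taken by name from the 44291 genes listed for both libraries, and each name matched exactly 1 entry. They comprised the early regulators Cebpb, Cebpd, Klf4 and Klf5, the preadipocyte regulators Ebf1, Ebf2 and Zfp423, and the late regulators Pparg, Cebpa and Klf15. There were 2 libraries, 1 from WT mouse FAPs labelled PRP (platelet-rich plasma) and 1 from WT mouse FAPs labelled control, which received vehicle. Both cultures carried the label of adipogenic differentiation, for which the induction medium was DMEM with insulin at 10 μg/ml, the phosphodiesterase inhibitor IBMX at 0.5 mM, the glucocorticoid dexamethasone at 0.25 μM and FBS at 20%. The study's methods also list a maintenance medium of DMEM with FBS and insulin, without IBMX or dexamethasone. The FAPs were sorted from hind limb muscle, the study's animals were C57BL/6 mice and the PRP was human. The study's text speaks of a FAP transcriptome after exosomes isolated from PRP, whereas the labels name PRP, and the labelled names are used here. The time of harvest, and so whether the cells were then in induction or maintenance medium, is not given in the sources used here. Nor is the number of animals or donors behind a library.

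Adipogenesis runs as a relay of transcription factors. Glucocorticoid and cAMP signals from the induction medium switch on C/EBPβ and C/EBPδ, early Krüppel-like factors act beside them, and these in turn activate PPARγ and C/EBPα, which maintain each other and drive the genes of the mature adipocyte. EBF1, EBF2 and ZFP423 mark and commit preadipocytes, and KLF15 belongs to the later phase.

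With 1 library per group there was no replicate check, so no test was made and every difference is one between 2 libraries. Values are FPKM, that is reads scaled by exon length and by the reads assigned to genes, which allows levels of different genes to be set side by side. The reads behind each value could be recovered from the FPKM and the exon length, and they totalled 40120843 under PRP and 34139741 in the control. An interval given with a ratio is the exact Clopper-Pearson 95% interval computed from fragments (reads divided by 2). Such intervals cover counting error only, and not the spread between cultures. Log2 fold changes are log2(PRP FPKM + 1) minus log2(control FPKM + 1), which understates the change of low genes. The 13401 genes that averaged 1 FPKM or more are called tested genes, and their median log2 fold change was 0.01, with 95% of them between -0.74 and 0.89. Of these genes 50.9% had a higher value in the PRP library, and counts of higher and lower genes stand against that share.

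Among the 10 regulators, Klf4, Pparg and Cebpb were higher in the PRP library, at 1.69, 1.33 and 1.23 times the control level, and Cebpd was lower, at 0.853 times. Cebpa, Klf15, Ebf1 and Ebf2 differed by less than counting error. Klf5 and Zfp423 were low in both libraries, with a mean below 1 FPKM, so that 8 of the 10 members were tested genes. Klf4 alone among those 8 changed at least 1.5-fold, against 10.7% of all tested genes in either direction and 6.15% in the higher direction. None of the 8 changed at least 2-fold on this scale, against 2.83% of tested genes. Klf5, which is not among the 8, had a ratio of 3.32 from few reads. The counting interval left out a ratio of 1 for 4 of the 8 members, Cebpb, Cebpd, Klf4 and Pparg, against 52.2% of the 12367 tested genes with whole reads. With each read counted on its own it did so for 5 of the 8, against 63.8%. None of these shares sets the members apart from other genes. In bulk libraries fewer cells of a type and less RNA per cell cannot be told apart.

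**Figure D1:**
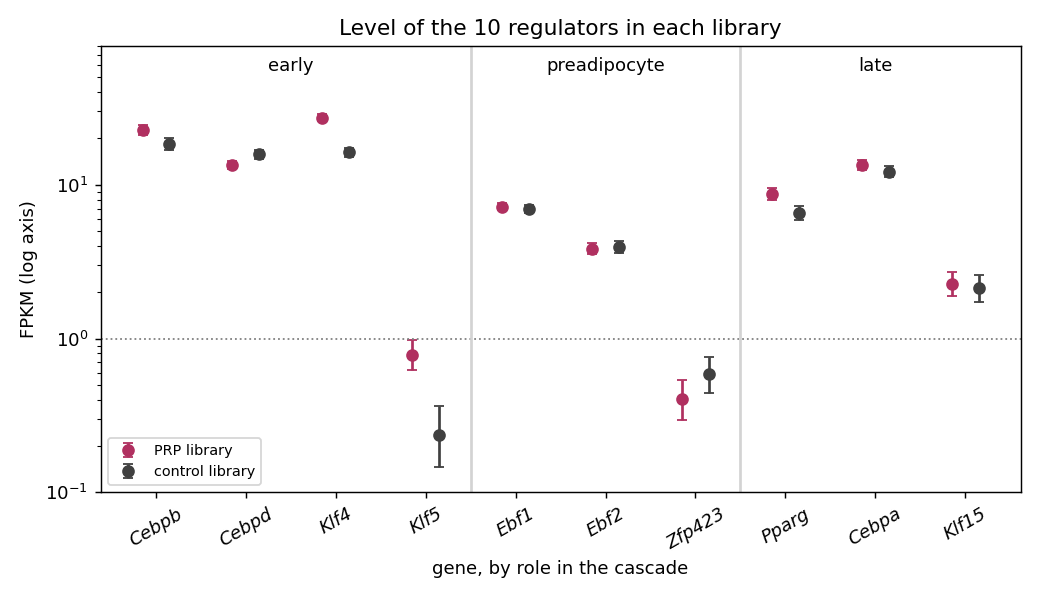
FPKM (log axis) of the 10 regulators in the PRP library and the control library, grouped as early, preadipocyte and late. Points are single libraries, bars are exact 95% Poisson counting intervals and the dotted line marks 1 FPKM. Klf4 stood at 27.4 against 16.2 FPKM, and only Klf5 and Zfp423 lay below the line.

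The sequences before the start sites are shown first, because Cebpb and Cebpd are known to respond to glucocorticoid and cAMP signals and Pparg has more than 1 start. RefSeq promoters on GRCm38.p6 were found for 7 of the 10 members, and Cebpd, Klf5 and Ebf2 had no entry. The 250 bases before each start were searched on both strands for TGACG (the core of the cAMP response element), TTGCNNAA (the C/EBP motif), ACANNNTGT (the core of the glucocorticoid receptor site) and TATAAA. Printed are the last 120 bases before the start for 5 of the starts whose window holds no annotated exon, with matches to TGACG, TTGCNNAA and TATAAA in capitals.
Cebpb, chr2:167688795-167688914, plus strand: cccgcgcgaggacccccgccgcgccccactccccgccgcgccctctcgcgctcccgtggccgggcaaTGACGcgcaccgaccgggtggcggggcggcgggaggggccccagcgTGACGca
Klf4, chr4:55532476-55532595, minus strand: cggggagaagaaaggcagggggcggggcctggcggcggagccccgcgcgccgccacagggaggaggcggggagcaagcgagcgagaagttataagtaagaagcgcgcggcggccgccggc
Cebpa, chr7:35119173-35119292, plus strand: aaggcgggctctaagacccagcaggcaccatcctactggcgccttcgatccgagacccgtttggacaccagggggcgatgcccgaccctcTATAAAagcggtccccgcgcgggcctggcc
Klf15, chr6:90462456-90462575, plus strand: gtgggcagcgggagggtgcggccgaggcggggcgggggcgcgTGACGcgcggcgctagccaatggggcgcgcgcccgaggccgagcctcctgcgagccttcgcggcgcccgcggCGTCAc
Pparg, internal start, chr6:115421946-115422065, plus strand: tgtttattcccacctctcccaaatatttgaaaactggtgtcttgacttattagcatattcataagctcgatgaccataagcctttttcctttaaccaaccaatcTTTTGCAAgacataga

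The Cebpb promoter held TGACG at 3 positions, which began 180, 53 and 7 bases before the start, and that of Klf15 held it at 78 and 6 bases. Klf4 had 1 match at 232 bases, outside the printed window. Such a match occurs in 17.8% of the 32851 promoter entries. The internal start of Pparg had TTGCNNAA at 215 and 16 bases, as have 9.56% of all entries at least once. Zfp423 had 1 such match, at 131 bases. Cebpa had TATAAA at 30 bases and a further Pparg start had it at 29 bases, and 12.4% of entries hold it. ACANNNTGT, present in 5.84% of entries, had no match in the members' windows. A match describes letters only and was not tied to any value below.

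The study followed let-7f-5p and miR-16-5p carried by the exosomes, so the longest annotated 3′ untranslated region of each member was searched for their seed matches. The mature mouse sequences from RefSeq are printed with the seed (bases 2 to 8) in capitals.
mmu-let-7f-5p: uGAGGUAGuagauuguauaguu
mmu-miR-16-5p: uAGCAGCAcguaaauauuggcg
The matching sites are CTACCTC and TGCTGCT. None of the 10 members had either site, in regions of 204 bases (Pparg) to 3343 bases (Ebf1). Of 10292 tested genes with such a region, 9.86% had the let-7f site and 24.6% the miR-16 site. This says only that these letters are not in the regions searched.

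Of the early regulators, 3 were abundant and 1 was low. Klf4 (ENSMUSG00000003032, chromosome 4, 55527143 to 55532466), a zinc finger factor that binds the Cebpb promoter early in adipogenesis, stood at 27.4 FPKM under PRP against 16.2 FPKM in the control. It was the highest of the 10 regulators in the PRP library. With 3349 and 1689 reads the ratio came to 1.69 (95% interval 1.55 to 1.83), and the log2 fold change was 0.72. Under every pseudocount and scaling tried, its log2 fold change lay between 0.61 and 0.75, past the 1.5-fold threshold.

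Klf5 (ENSMUSG00000005148, chromosome 14, 99298691 to 99315036), a zinc finger factor induced by C/EBPβ and C/EBPδ that helps to switch on Pparg, stood at 0.786 FPKM under PRP against 0.237 FPKM in the control. Its ratio of 3.32 (95% interval 2.04 to 5.65) was the highest of the members, but it came from only 164 and 42 reads. Because of the low level, the log2 fold change of Klf5 moved with the pseudocount, from 0.14 at a pseudocount of 5 to 1.40 at 0.1, against 0.53 at 1. It was not counted among the tested genes.

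The C/EBP pair of the early phase went in opposite directions. Cebpb (ENSMUSG00000056501, chromosome 2, 167688915 to 167690418), whose product is among the first adipogenic factors to rise after induction, stood at 22.6 FPKM under PRP against 18.4 FPKM in the control. The ratio was 1.23 (95% interval 1.09 to 1.39), with a log2 fold change of 0.28. Cebpd (ENSMUSG00000071637, chromosome 16, 15887286 to 15891031), the partner induced by glucocorticoid, stood at 13.5 FPKM under PRP against 15.8 FPKM in the control. Its ratio was 0.853 (95% interval 0.781 to 0.932) and its log2 fold change -0.21.

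The Cebpb level was 1.68 times that of Cebpd under PRP and 1.17 times in the control. The quotient of these ratios was 1.44, with an exact conditional 95% interval of 1.24 to 1.67 that covers counting error only. Exons of both genes overlap genes on the opposite strand, Tmem189 over 20.7% of the Cebpb exon length and Spidr over 15.003% of the Cebpd exon length. Tmem189 had 19.4 and 16.3 FPKM and Spidr 4.69 and 5.54 FPKM, in the PRP and control libraries, each in the same direction as the regulator it overlaps. The kit keeps strand, but the strand setting of the counting is not given in the sources used here, and the part of these overlaps in the values was not tested.

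**Figure D2:**
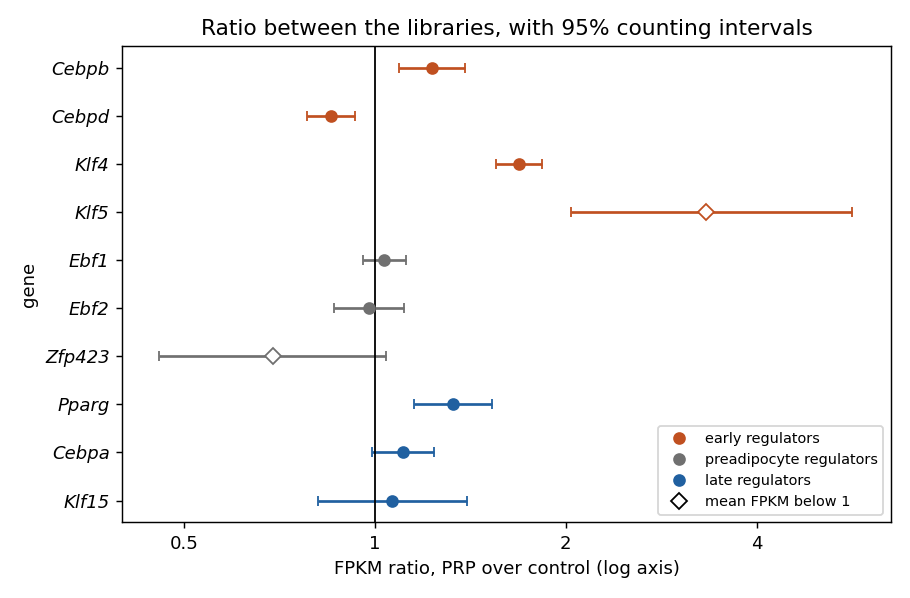
Ratio of FPKM, PRP over control (log axis), of the 10 regulators, with exact Clopper-Pearson 95% counting intervals as bars, 1 library per group. Open diamonds mark a mean FPKM below 1. The intervals of Cebpb, Klf4, Klf5 and Pparg lie above 1, that of Cebpd lies below 1, and those of the other 5 genes include 1.

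The preadipocyte regulators were near equal in the libraries. Ebf1 (ENSMUSG00000057098, chromosome 11, 44617317 to 45008091), an early B cell factor that also promotes adipogenesis, stood at 7.18 FPKM under PRP against 6.94 FPKM in the control, a ratio of 1.04 (95% interval 0.957 to 1.12). Ebf2 (ENSMUSG00000022053, chromosome 14, 67233292 to 67430918), a paralogue known from brown and beige preadipocytes, had 3.84 and 3.92 FPKM in the same order, a ratio of 0.979 (0.863 to 1.11). Both differences were within counting error, and the spread between cultures is unknown with 1 library per group.

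Zfp423 (ENSMUSG00000045333, chromosome 8, 87661810 to 87959595), a zinc finger factor of preadipocyte commitment, stood at 0.404 FPKM under PRP against 0.585 FPKM in the control, from 91 and 112 reads. The ratio was 0.691 (95% interval 0.457 to 1.04), and it would leave out 1 if each read were counted on its own (0.518 to 0.920). It was the lowest member in the PRP library, below Klf5, whereas Klf5 was the lowest in the control library.

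All 3 late regulators had higher values in the PRP library, as had 50.9% of all tested genes, with Pparg alone beyond counting error. Pparg (ENSMUSG00000000440, chromosome 6, 115360951 to 115490399), the nuclear receptor required for adipocyte formation, stood at 8.69 FPKM under PRP against 6.55 FPKM in the control. With 1030 and 660 reads the ratio came to 1.33 (95% interval 1.15 to 1.53), with a log2 fold change of 0.36. The study reports the other direction by RT-PCR, with lower PPARγ mRNA in FAPs given exosomes from young donors' PRP. Its text also describes the PPAR signaling pathway as downregulated in the transcriptome after exosomes. RT-PCR is another measure, the treatment is named differently from the label here, and the difference was not tested. The value sums transcripts from all Pparg starts, among them the internal start printed above, so the isoforms cannot be told apart.

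Cebpa (ENSMUSG00000034957, chromosome 7, 35119293 to 35121928), which sustains Pparg expression, stood at 13.5 FPKM under PRP against 12.2 FPKM in the control, a ratio of 1.11 (95% interval 0.991 to 1.24). With each read counted on its own the interval would be 1.02 to 1.20. Klf15 (ENSMUSG00000030087, chromosome 6, 90462576 to 90475238), a zinc finger factor of the later phase that responds to glucocorticoid, had 2.27 and 2.13 FPKM, a ratio of 1.06 (0.814 to 1.40). The quotient of the Pparg and Cebpa levels was 0.644 under PRP and 0.538 in the control, and the change of this quotient, 1.20, had an interval of 0.999 to 1.44 that includes 1.

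The order of the levels differed between the libraries at several places. In the control library the sequence was Cebpb, Klf4, Cebpd, Cebpa, Ebf1, Pparg, Ebf2, Klf15, Zfp423 and Klf5. There the counting intervals of Cebpb and Klf4, of Klf4 and Cebpd, and of Ebf1 and Pparg overlapped. In the PRP library it was Klf4, Cebpb, Cebpa, Cebpd, Pparg, Ebf1, Ebf2, Klf15, Klf5 and Zfp423, where only the neighbours Cebpa and Cebpd overlapped.

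Early and late regulators were then compared as groups. The summed level of the 4 early genes was 64.2 FPKM under PRP against 50.6 FPKM in the control. The 3 late genes summed to 24.5 and 20.9 FPKM, and the 3 preadipocyte genes to 11.4 FPKM in each library. The median log2 fold change was 0.28 over the 3 tested early genes (2 higher, 1 lower), 0.01 over the 2 tested preadipocyte genes and 0.14 over the 3 late genes (3 higher), against 0.01 over all tested genes. The late median thus lay 0.15 below the early median, a difference smaller than the range of the early genes themselves, from -0.21 to 0.72.

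**Figure D3:**
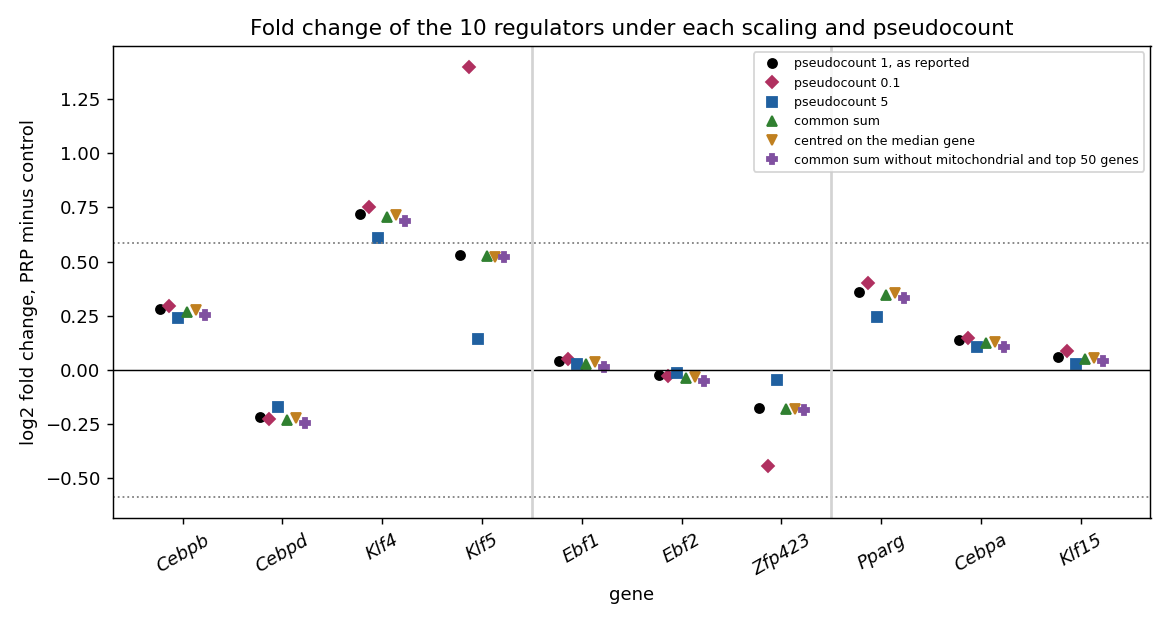
Log2 fold change (PRP minus control) of the 10 regulators under the reported setting, 2 other pseudocounts and 3 other scalings. Dotted lines mark a 1.5-fold change. Every regulator kept its sign under the 3 other scalings, whereas a pseudocount cannot change a sign. Klf5 moved most, from 0.14 to 1.40.

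The lists around the cascade were examined by family and by position, and their counts past 1.5-fold stand against 6.15% of all tested genes in the higher direction and 4.57% in the lower. In the C/EBP family, bZIP factors that pair with each other, 5 of 6 genes were tested, with a median log2 fold change of 0.15 (4 higher, 1 lower). Ddit3, which encodes the stress-induced partner CHOP, an inhibitor of C/EBP binding, stood at 278.7 FPKM under PRP against 151.2 FPKM in the control. Its ratio was 1.84 (95% interval 1.78 to 1.91), and it was the only family member past 1.5-fold. A second entry of 105 bases under the same name had 571.1 and 322.5 FPKM. Cebpg, a widely expressed partner, had 10.1 and 9.04 FPKM (ratio 1.12, 1.03 to 1.23), and Cebpe was listed at 0 in both.

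In the KLF family, 9 of 17 genes were tested, with a median of 0.10, 7 higher and 2 lower, and 3 of the 9 passed 1.5-fold, all in the higher direction, against 6.15% of all tested genes. Beside Klf4 these were Klf6, a proto-adipogenic factor that represses Dlk1, at 34.4 against 20.9996 FPKM (ratio 1.64, 1.54 to 1.74), and Klf10, a TGF-β-inducible gene, at 6.79 against 2.59 FPKM (ratio 2.62, 2.22 to 3.12). Klf9, another glucocorticoid-responsive factor, had 7.57 against 7.36 FPKM (ratio 1.03, 0.923 to 1.15). The Klf4 level relative to Klf15 was 12.1 under PRP and 7.62 in the control, a change of 1.58 (exact conditional 95% interval 1.20 to 2.11). Relative to Klf5, another early factor with few reads, the Klf4 level went the other way. It was 34.8 under PRP and 68.6 in the control, a change of 0.508 (0.297 to 0.836).

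In the EBF family 3 of 4 genes were tested, with a median of -0.02. Ebf3 had 1.499 against 2.03 FPKM (ratio 0.738, 0.626 to 0.869), outside counting error but short of 1.5-fold. Among PPAR and RXR genes 4 of 6 were tested, with a median of -0.03. Ppard, the broadly expressed PPAR, had 8.15 against 8.14 FPKM (ratio 1.001, 0.921 to 1.09), and Rxra, the obligate partner of PPARγ, had 5.05 against 5.99 FPKM, a log2 fold change of -0.21 for which no whole reads were recovered.

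**Figure D4:**
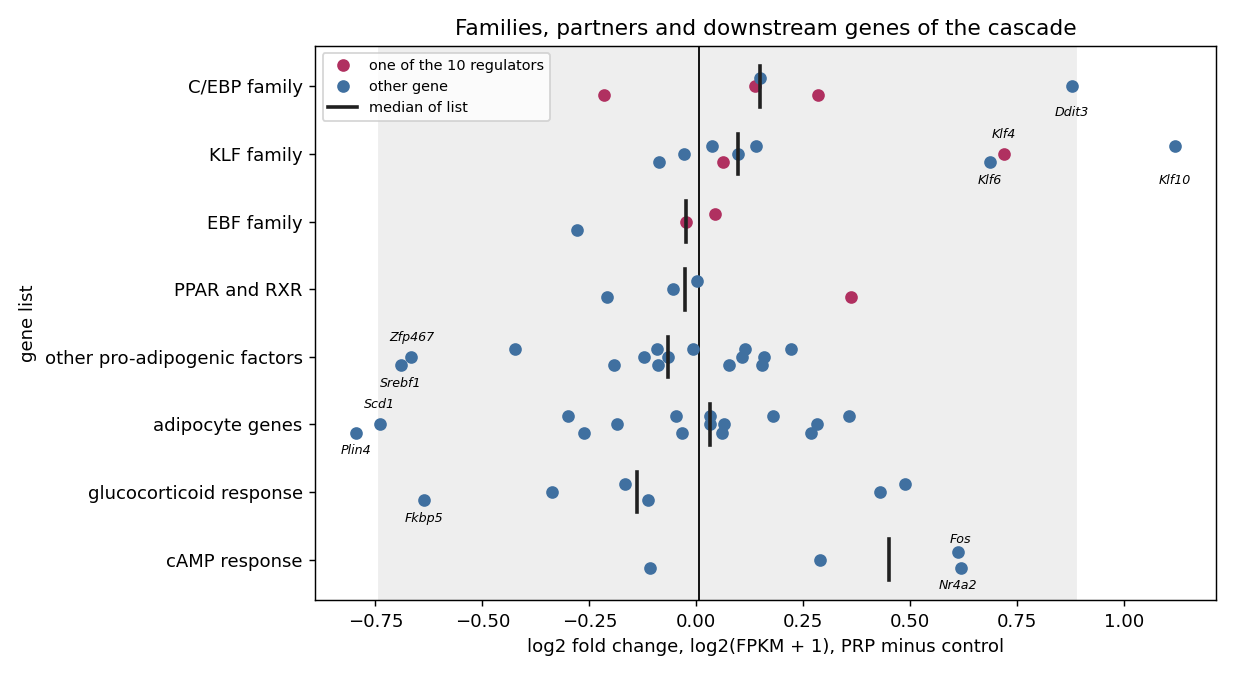
Log2 fold change, log2(FPKM + 1), PRP minus control, of the tested genes in each list around the cascade, with the 10 regulators in red and list medians as bars, and the vertical line marks the median of all tested genes. The grey band holds the middle 95% of all tested genes (-0.74 to 0.89), and names are given for genes past 1.5-fold. Klf10 lies above the band and Plin4 below it.

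Of 20 other pro-adipogenic factors and cofactors, 15 were tested, with a median log2 fold change of -0.07 (6 higher, 9 lower). Past 1.5-fold were 2 of the 15, both lower, a share close to the 10.7% of all tested genes in either direction. Srebf1, the lipogenic factor first known in adipocytes as ADD1, had 2.76 against 5.08 FPKM (ratio 0.544, 0.471 to 0.629), and Zfp467, a zinc finger factor that favours adipocyte over osteoblast fate, 0.650 against 1.62 FPKM (ratio 0.402, 0.287 to 0.558). The most abundant were Xbp1 (24.7 against 33.5 FPKM, ratio 0.737, 0.689 to 0.789), Nr3c1, which encodes the glucocorticoid receptor (7.85 against 8.42 FPKM, ratio 0.932, 0.858 to 1.01), and the PPARγ coregulator gene Tle3 (7.31 against 7.35 FPKM, ratio 0.994, 0.927 to 1.07).

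Adipocyte genes downstream of PPARγ and C/EBPα had no common direction. Of 25 genes, 15 were tested, 8 higher and 7 lower, with a median of 0.03. None passed 1.5-fold in the higher direction, and Plin4, a lipid droplet coat gene (6.27 against 11.6 FPKM), and Scd1, a stearoyl-CoA desaturase gene (88.9 against 149.2 FPKM), passed it in the lower direction, so that 2 of 15 were past the threshold against 10.7% of all tested genes. The fatty acid binding protein gene Fabp4 (40.7 against 33.6 FPKM) and the lipoprotein lipase gene Lpl (67.4 against 83.3 FPKM), both known PPARγ targets, lay on opposite sides of no change. Adipoq, the gene of the adipocyte hormone adiponectin, had 5.49 against 5.22 FPKM (ratio 1.05, 0.824 to 1.34). The study reports lower adipogenesis pathways in its transcriptome after exosomes from young donors' PRP. It also reports less adipogenesis by RT-PCR of marker genes and by staining of cells. Pathway terms, RT-PCR and staining are other measures, and the treatment is named differently from the label here. The difference was not tested.

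Genes known to respond to glucocorticoid or cAMP were read next, and the signals themselves were not measured. Whether dexamethasone and IBMX were still in the medium at harvest is not given. All 6 glucocorticoid response genes were tested, with 2 higher and 4 lower and a median of -0.14. Fkbp5, a feedback regulator of the receptor, had 7.62 against 12.4 FPKM (ratio 0.614, 0.574 to 0.658) and was past 1.5-fold. Also lower were Zbtb16 (1.49 against 2.14 FPKM, ratio 0.694, 0.559 to 0.862), Tsc22d3 (ratio 0.849, 0.689 to 1.05) and Per1 (ratio 0.912, 0.807 to 1.03). Sgk1 (11.5 against 7.90 FPKM, ratio 1.45, 1.32 to 1.60) and the phosphatase gene Dusp1 (9.90 against 7.09 FPKM, ratio 1.40, 1.23 to 1.59) were higher. When only genes averaging 5 FPKM or more were kept, the median of this list was 0.16, so its sign depended on the filter. Of 7 cAMP response genes 4 were tested, 3 higher and 1 lower, with a median of 0.45. The lower one was Crem (0.964 against 1.12 FPKM, ratio 0.862, 0.659 to 1.13). Below the filter, Nr4a1, Pde4b and Pde4d had ratios of 1.34, 1.07 and 1.04, with intervals that include 1. Fos (3.23 against 1.76 FPKM, ratio 1.84, 1.38 to 2.48) and Nr4a2 (2.52 against 1.31 FPKM, ratio 1.93, 1.502 to 2.5025) were past 1.5-fold, and Sik1 had 1.57 against 1.11 FPKM (ratio 1.42, 1.10 to 1.85).

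Markers of cell types were measured beside these values. Of 7 FAP markers 6 were tested and all 6 had lower values under PRP, whereas 50.9% of all tested genes had higher values there. The summed level of the 7 was 229.4 against 377.7 FPKM. Most of this difference came from the collagen gene Col1a1 (118.6 against 218.7 FPKM) and from Dpt (18.8 against 50.2 FPKM). These 2 were the only FAP markers past 1.5-fold, against 4.57% of all tested genes in the lower direction. Pdgfra stood at 19.8 against 28.0 FPKM, Cd34 at 4.76 against 6.10 FPKM (ratio 0.780), Ly6a at 59.9 against 66.4 FPKM (ratio 0.902) and Dcn at 7.54 against 8.36 FPKM (ratio 0.901), and Lum was near 0 in both libraries (8 and 6 reads). The 5 macrophage markers summed to 6.03 against 3.28 FPKM, most of it from Cd68 (4.56 against 2.31 FPKM), while Ptprc and Adgre1 had at most 12 reads. Cd14 (0.835 against 0.440 FPKM) and Csf1r (0.596 against 0.457 FPKM) also had higher values under PRP, with intervals of the ratio that include 1. The 5 endothelial markers summed to 9.45 against 5.38 FPKM, nearly all from Kdr (4.23 against 1.499 FPKM) and Tek (4.73 against 3.56 FPKM). Pecam1 had 0.188 against 0.0470 FPKM, from 47 and 10 reads, a ratio of 3.999 (1.49 to 13.4), while Emcn (0.203 against 0.173 FPKM) and Cdh5 (0.0949 against 0.0976 FPKM) had ratios whose intervals include 1. The 5 myogenic markers, of which 4 were listed, summed to 2.91 against 3.43 FPKM, nearly all from Des (2.91 against 3.39 FPKM). Pax7 and Myog were at 0 and Myod1 had 0 and 2 reads. The 5 pericyte markers summed to 2.13 against 2.504 FPKM and the 5 platelet markers to 1.55 against 1.40 FPKM with Ppbp and Gp9 at 0. The 5 adipocyte markers summed to 10.4 against 9.84 FPKM. The part of these differences in the regulators' values was not tested.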

How the data were processed

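Each group gave 1 library, made from TRIzol-extracted RNA by a kit that keeps strand. Per the submitters' processing notes and the methods, the authors used fastp 0.23.4, STAR 2.5.3a with mm10 and featureCounts. The deposited values are FPKM as the authors computed them, and the annotation release and strand setting are not given in the sources used here.

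Exon lengths came from GENCODE M21 (GRCm38), matched by gene ID for 41464 of 44291 genes (93.6%). With them 26398 of 28152 genes above 0 (93.8%) gave a whole number of reads in each library, to within 0.001 of a read. All 10 members were among these. Even read numbers were in excess (79.3% and 80.3% of genes with up to 8 reads), so intervals used reads divided by 2. No count model was run. The pseudocount was 1 and the filter a mean FPKM of at least 1. The change called was 1.5-fold.

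The members and lists were chosen with earlier results of these data known. All members are named, as are, in each list around the cascade, genes past 1.5-fold (at most 6) and the 3 most abundant. Cell type markers were listed apart, and those named, like other genes, were chosen after their values were seen. With 2 libraries no gene could be ranked by likeness of pattern. Alternatives were pseudocounts of 0.1 and 5, other filters, scalings and thresholds, and means. Python 3.11.15, NumPy 2.4.6, pandas 2.3.3, SciPy 1.17.1 and matplotlib 3.10.9 were used, and the procedures were tested on simulated data.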

Additional observations from a re-analysis of the deposited data

How the results depend on the processing

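No paired analysis was possible because the design holds 1 library for PRP and 1 for control, and none could be left out for the same reason. No regulator changed sign under the scalings tried. Pseudocounts and filters cannot reverse the sign of a single gene, so only the scalings bear on this. The late minus early difference of medians ranged from -0.27 to -0.03. The preadipocyte median stayed within -0.02 to 0.04 and took either sign. The number of tested genes past the threshold, 1436 at 1.5-fold, came to 2202 and 522 under pseudocounts of 0.1 and 5, to 750 when genes averaging under 5 FPKM were dropped and to 379 at 2-fold, where the number of regulators was 0. With the 5 FPKM filter the KLF family median was 0.39 and the glucocorticoid median 0.16, since fewer genes were tested. The cAMP median was 0.18 with a pseudocount of 5. With reads in place of fragments, 7 of the 10 regulators had an interval that left out 1, against 5; over the 8 tested ones it was 5 against 4, beside 63.8% and 52.2% of all tested genes with whole reads. The medians of the EBF, PPAR and RXR, and other pro-adipogenic lists also took either sign. Depth limits Klf5 and Zfp423 most.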
